A study of Homo sapiens with 3 samples.

Results

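Imprinted genes were examined in H9, an established line of human embryonic stem cells. The 34 genes were listed by symbol, matched to Ensembl identifiers through GENCODE release 44, and all 34 were present among the 58051 genes of the deposited counts. Total RNA of untreated, wild-type H9 cells, cultured in Essential 8 Flex medium on vitronectin, was depleted of ribosomal RNA and sequenced in 3 replicates, which form the only group, so that no difference between conditions could be tested. The labels do not say whether the replicates were separate cultures, and their spread may be technical. Counts on genes totaled 10390984, 12024802 and 8655155 in replicates 1, 2 and 3. Levels are given as TPM, reads per kilobase of annotated exon scaled to a sum of 1000000 in each replicate. All 5 pluripotency markers examined (LIN28A, POU5F1, DPPA4, SOX2 and NANOG) had means from 275 to 2576 TPM. All 8 markers of other cell types were between 0.0645 and 14.6 TPM, the highest being COL1A1 and the lowest CGA.

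At an imprinted gene, the copy inherited from one parent is expressed and the other is kept silent, by DNA methylation that is laid down in the egg or the sperm and copied at each cell division. Most such genes lie in clusters around a differentially methylated control region, and many act on fetal and placental growth or in the brain. Of the 34 genes, 22 are known as paternally expressed and 7 as maternally expressed, and 5 (GNAS, INPP5F, GRB10, UBE3A and BLCAP) are imprinted only for some transcripts or in some tissues. The counts do not tell the parental copies apart, so these assignments are background and were not measured.

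Start-site sequences were available for 21 of the genes in a RefSeq table on GRCh38.p14, as windows from 250 bases before to 50 after each start. No entry was found for PEG10, NNAT, CDKN1C, PHLDA2, SGCE, KCNQ1OT1, IGF2, KCNQ1, SLC22A18, DLK1, MEG8, PEG3 and ZIM2. Below are the windows of the 3 genes with the highest and the 3 with the lowest mean level among those 21, so that expressed and silent members can be compared by sequence. Where a gene had several start sites, the window with the most CpG was taken. The window of SNURF was added after the values were seen, because it is also a start site of SNRPN. Capitals mark the hexamer TGCCGC or its reverse complement GCGGCA, which may overlap each other. ZFP57, a zinc finger protein that keeps imprints, binds this hexamer when it is methylated.
MEST (chr7:130491835-130492134, plus strand): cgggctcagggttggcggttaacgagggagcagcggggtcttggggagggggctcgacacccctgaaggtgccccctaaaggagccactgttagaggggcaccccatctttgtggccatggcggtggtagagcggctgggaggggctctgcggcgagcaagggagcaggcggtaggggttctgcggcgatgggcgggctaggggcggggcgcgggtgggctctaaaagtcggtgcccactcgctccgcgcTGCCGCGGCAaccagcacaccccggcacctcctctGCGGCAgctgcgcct
GNAS (chr20:58888930-58889229, plus strand): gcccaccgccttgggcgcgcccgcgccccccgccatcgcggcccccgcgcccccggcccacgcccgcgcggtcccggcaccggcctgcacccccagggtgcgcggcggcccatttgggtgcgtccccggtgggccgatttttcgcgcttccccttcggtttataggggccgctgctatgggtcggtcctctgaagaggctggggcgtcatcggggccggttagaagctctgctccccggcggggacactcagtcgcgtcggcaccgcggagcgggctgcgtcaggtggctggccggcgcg
INPP5F (chr10:119726246-119726545, plus strand): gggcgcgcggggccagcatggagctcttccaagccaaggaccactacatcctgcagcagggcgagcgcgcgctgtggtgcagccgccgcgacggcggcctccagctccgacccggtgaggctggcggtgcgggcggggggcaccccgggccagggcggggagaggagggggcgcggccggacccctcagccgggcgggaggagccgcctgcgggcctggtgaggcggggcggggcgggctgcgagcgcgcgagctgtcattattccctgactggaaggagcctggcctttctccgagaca
USP29 (chr19:57119735-57120034, plus strand): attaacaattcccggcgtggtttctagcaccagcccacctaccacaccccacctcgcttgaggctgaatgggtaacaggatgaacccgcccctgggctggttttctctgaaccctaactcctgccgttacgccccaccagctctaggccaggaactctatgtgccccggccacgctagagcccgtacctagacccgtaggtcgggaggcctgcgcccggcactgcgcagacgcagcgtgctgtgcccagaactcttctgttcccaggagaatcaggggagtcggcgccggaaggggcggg
RTL1 (chr14:100903673-100903972, minus strand): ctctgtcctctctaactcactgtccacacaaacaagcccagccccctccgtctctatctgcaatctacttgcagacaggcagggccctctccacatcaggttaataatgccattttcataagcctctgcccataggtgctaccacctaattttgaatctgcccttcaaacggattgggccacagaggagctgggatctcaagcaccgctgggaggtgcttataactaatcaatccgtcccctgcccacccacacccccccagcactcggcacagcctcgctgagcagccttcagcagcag
HYMAI and PLAGL1 (chr6:144008210-144008509, minus strand): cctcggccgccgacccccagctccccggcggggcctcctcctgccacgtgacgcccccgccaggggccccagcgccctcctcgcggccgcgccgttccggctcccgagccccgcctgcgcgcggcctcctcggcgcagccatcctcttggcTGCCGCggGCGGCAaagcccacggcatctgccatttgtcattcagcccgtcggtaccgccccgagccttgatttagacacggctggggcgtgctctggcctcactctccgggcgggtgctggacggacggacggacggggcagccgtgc
SNURF and SNRPN (chr15:24954737-24955036, plus strand): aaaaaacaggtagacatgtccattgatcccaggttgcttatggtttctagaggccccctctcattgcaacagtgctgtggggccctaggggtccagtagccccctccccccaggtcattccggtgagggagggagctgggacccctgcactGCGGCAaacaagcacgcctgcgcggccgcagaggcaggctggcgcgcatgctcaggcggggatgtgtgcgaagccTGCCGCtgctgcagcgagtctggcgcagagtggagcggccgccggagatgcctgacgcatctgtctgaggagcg

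CpG dinucleotides numbered 43 in the GNAS window, 39 in that of HYMAI and PLAGL1, 34 in INPP5F, 25 in MEST, 20 in USP29, 18 in SNURF and SNRPN and 6 in RTL1. A dense CpG window was thus found at HYMAI, on which no read was counted, as well as at a start site of the highly expressed GNAS. The HYMAI window is also a start site of PLAGL1, which had 8, 18 and 12 reads, so it cannot be called silent. The GNAS window was picked from 6 as the one with the most CpG. As reads were counted per gene, it was not shown which start gave the GNAS reads. The hexamer occurred 3 times in the MEST window, 2 times each in that of HYMAI and PLAGL1 and that of SNURF and SNRPN, and in none of the other printed windows. It was present in 20 of 49 distinct windows of the members (40.8%), against 16.7% of 34943 windows of all genes. Several of the 49 windows overlap and belong to the same gene. Their median GC content was 60.7%, against 58.7% for all windows, and their median CpG number was 18 against 14. These matches are descriptions of the sequence, and binding was not measured.

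Levels of the imprinted genes ran from genes without a read to PEG10, at percentile 98.9 of all protein-coding genes. More than 3 reads, the number that a count of 0 allows, were counted in every replicate on 25 of the 34 genes. These were 23 of the 29 protein-coding members (79.3%), against 71.9% of all 19629 protein-coding genes, and 2 of the 5 noncoding members, H19 and KCNQ1OT1. Over all genes with a TPM, coding or not, the share was 33.1%. Protein-coding genes were classed by the procedure of the study, with genes below 0.01 TPM nonexpressed and the others in 3 equal classes divided here at 3.35 and 26.96 TPM. By this measure 11 protein-coding members (37.9%) were high, against 28.8% of all protein-coding genes, 6 were medium, 10 were low and 2 were nonexpressed. Their median level was 5.18 TPM, against 7.10 TPM for all protein-coding genes. Between 0.294% and 0.299% of the counts of each replicate lay on the 34 genes.

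**Figure D1:**
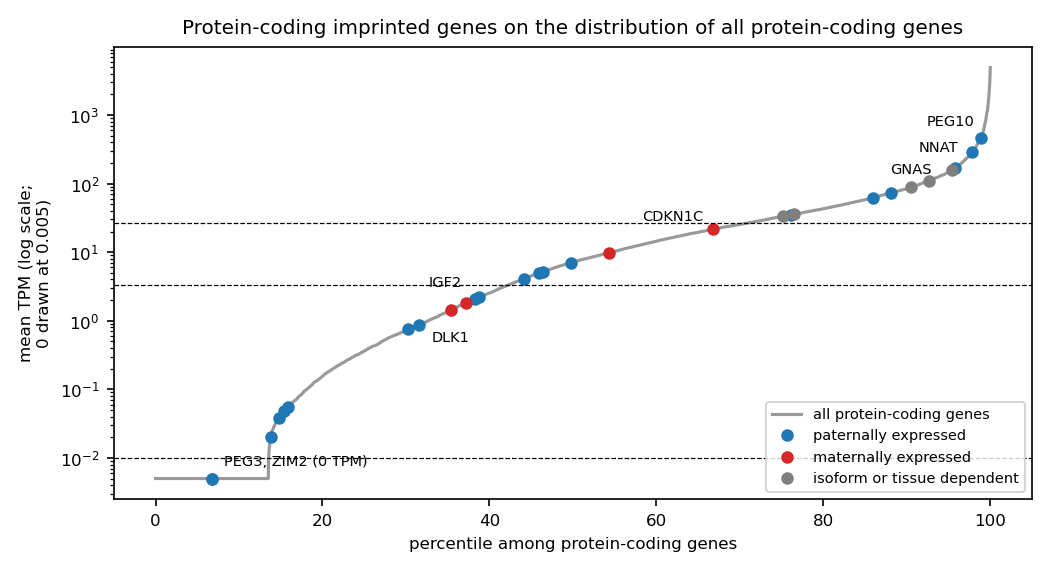
Mean TPM of the 29 protein-coding imprinted genes (colored points) against their percentile among all 19629 protein-coding genes (gray curve), with the class boundaries as dashed lines at 0.01, 3.35 and 26.96 TPM. The points run from PEG3 and ZIM2, at 0 TPM, to PEG10, at percentile 98.9.

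The 5 members with the highest mean TPM together held 74.9 ± 0.324% (SD, n = 3) of the TPM summed over the 34 genes. PEG10 (ENSG00000242265, chromosome 7, 94656325 to 94669695, plus strand), a gene derived from a retrotransposon and required in the placenta, had 481, 472 and 429 TPM in replicates 1, 2 and 3. Its mean was 461 ± 27.9 TPM (SD, n = 3), from 8382, 9564 and 6373 reads. NNAT (chromosome 20, 37521206 to 37523690, plus strand), which encodes the small membrane protein neuronatin, followed at 286, 279 and 306 TPM. MEST (chromosome 7, 130486171 to 130506465, plus strand), a gene of embryonic mesoderm, had 176, 168 and 166 TPM over all its transcripts. All 3 were assigned as paternally expressed, and their replicate ranges did not overlap. With the longest transcript as gene length, NNAT and MEST were both at 231 TPM. Exons of genes on the opposite strand lie over 27.6% of the MEST exons. MEST has processed pseudogenes with which reads could be shared, MESTP1 and MESTP3, aligned at 94.0% and 92.4% identity. MESTP1 had 0, 2 and 0 reads and MESTP3 none. No other member had a copy elsewhere with at least 90% identity over 200 bp and 25% of its longest transcript. KCNQ1OT1 was not searched.

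GNAS (chromosome 20, 58839718 to 58911192, plus strand), which encodes the stimulatory G protein alpha subunit along with imprinted alternative products, had 9183, 10823 and 7794 reads and 159, 161 and 158 TPM. With the longest transcript as gene length it rose to a mean of 364 TPM, above the 351 TPM of PEG10 in the same setting, because the union of its exons is 22221 bp and its longest transcript 7318 bp. The first place among the imprinted genes thus depended on the length used. INPP5F (chromosome 10, 119726042 to 119829147), an inositol phosphatase gene, had 110, 111 and 110 TPM. GRB10 (chromosome 7, 50590063 to 50793462), an adaptor that restrains insulin and IGF signaling, had 88.1, 87.9 and 90.5 TPM. GNAS, INPP5F and GRB10 varied by 0.955%, 0.831% and 1.61% between replicates (coefficient of variation). The other 22 detected members varied by 2.61%, at ZDBF2, to 43.4%, at KCNQ1. Counts are per gene and do not separate their imprinted from their biallelic transcripts.

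**Figure D2:**
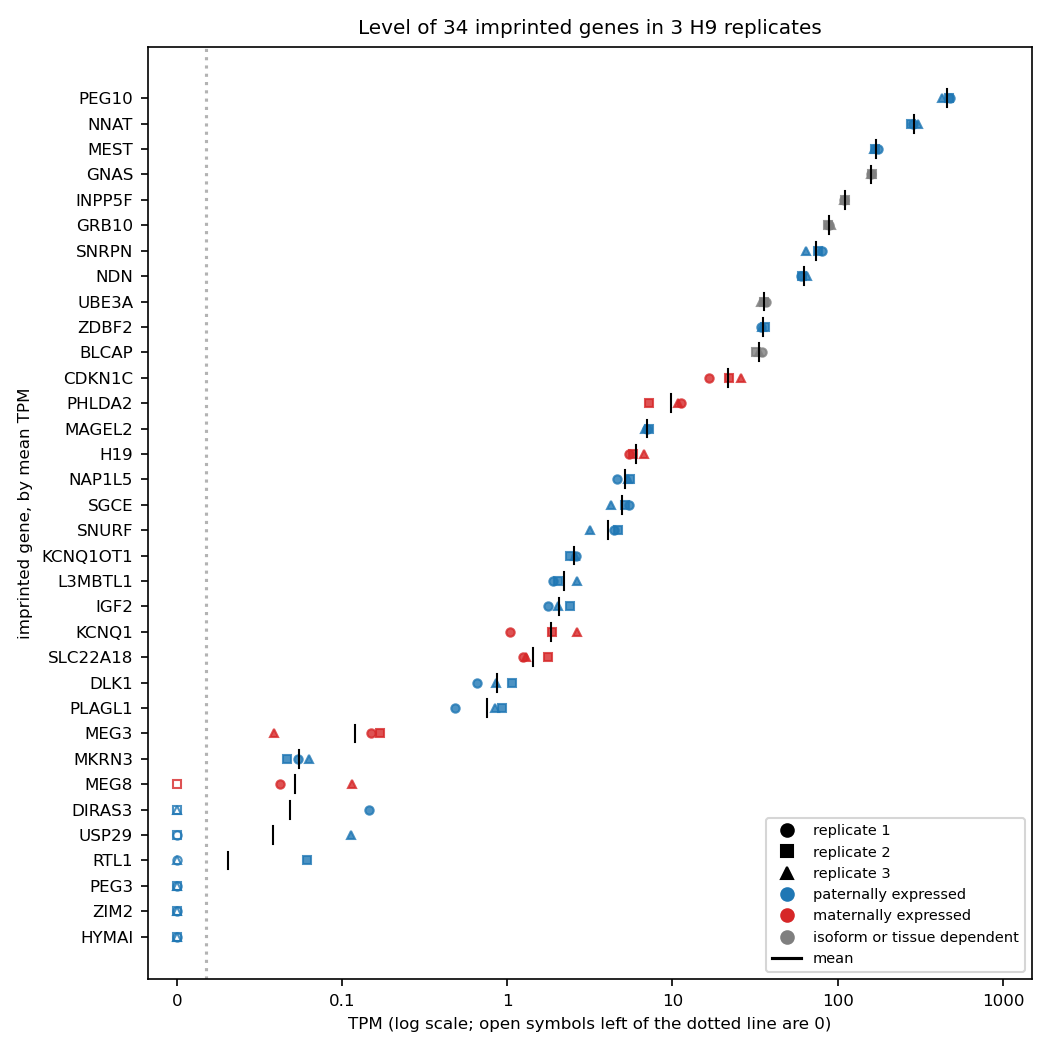
TPM of the 34 imprinted genes in replicates 1, 2 and 3, ordered by mean TPM (black bar), with open symbols for values of 0 and colors for the parental copy assigned as expressed. The genes range from PEG10, at a mean of 461 TPM, to PEG3, ZIM2 and HYMAI, without a read.

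Of 33 pairs of neighbors in the order by mean TPM, 20 had overlapping replicate ranges. Neighbor overlapped neighbor from UBE3A over ZDBF2 to BLCAP, from H19 over NAP1L5 and SGCE to SNURF, and from KCNQ1OT1 over L3MBTL1, IGF2 and KCNQ1 to SLC22A18. The pairs SNRPN and NDN, PHLDA2 and MAGEL2, and DLK1 and PLAGL1 also overlapped. From MEG3 down, every neighboring range overlapped, so that the order of the 9 lowest genes was not resolved at this depth.

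Genes of the same locus differed widely in level at PEG10 and SGCE, at NNAT and BLCAP and in the SNRPN region. PEG10 and SGCE, the gene of epsilon-sarcoglycan on the opposite strand, are transcribed in opposite directions from 5′ ends 247 bp apart, and their first exons overlap. SGCE (chromosome 7, 94524204 to 94656572, minus strand) had 298, 328 and 196 reads, or 5.48, 5.19 and 4.23 TPM. Per length, PEG10 was 93.4 ± 7.16 times SGCE (SD, n = 3), and 28.4 times with the longest transcript as gene length. Of the SGCE exons, 1.05% lie over exons of PEG10, and reads of that stretch cannot be assigned without strand. NNAT lies within BLCAP, on the opposite strand, and BLCAP had 34.95, 31.9 and 33.3 TPM. NNAT was 8.72 ± 0.502 times BLCAP (SD, n = 3), and 4.77 times with the longest transcript as length.

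The Prader-Willi and Angelman syndrome region on chromosome 15 held 6 members. SNRPN (24823637 to 24978723, plus strand), which encodes a core protein of spliceosomal particles, had 712, 784 and 484 reads and 80.3, 76.0 and 64.0 TPM. SNURF, encoded upstream in the same transcript as SNRPN, had 18, 22 and 11 reads and 4.09 ± 0.799 TPM (SD, n = 3). SNURF shares 52.1% of its exon length with SNRPN on the same strand, so that reads common to both may have been assigned to 1 or dropped. Its level was 7.66 TPM when only unshared exon was counted as length, and the ratio of SNRPN to SNURF fell from 18.2 to 13.1. The ratio therefore does not measure separate transcripts.

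NDN, the gene of necdin, a MAGE protein expressed in neurons, had 297, 352 and 277 reads and 62.1 ± 2.97 TPM (SD, n = 3). MAGEL2, of the same family and without introns like NDN, lies 39438 bp from it by 5′ ends. It had 79, 94 and 65 reads and 7.00 ± 0.207 TPM (SD, n = 3), so that NDN was 8.89 ± 0.667 times higher. MKRN3, which encodes a RING finger protein that restrains puberty, had 1 read in each replicate. Paternally expressed genes of the same region thus ran from 0.0545 TPM at MKRN3 to 73.4 TPM at SNRPN. UBE3A, the ubiquitin ligase gene that is maternally expressed in neurons, had 36.7, 35.9 and 34.4 TPM. SNHG14, the paternal noncoding transcript that overlaps UBE3A in antisense, was named after its values were seen and had 33.7 ± 0.694 TPM (SD, n = 3). Exons of SNHG14 lie over 9.57% of the UBE3A exons, and reads there cannot be told apart without strand. The TPM of SNHG14 is over all its exons and does not give its level over UBE3A.

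**Figure D3:**
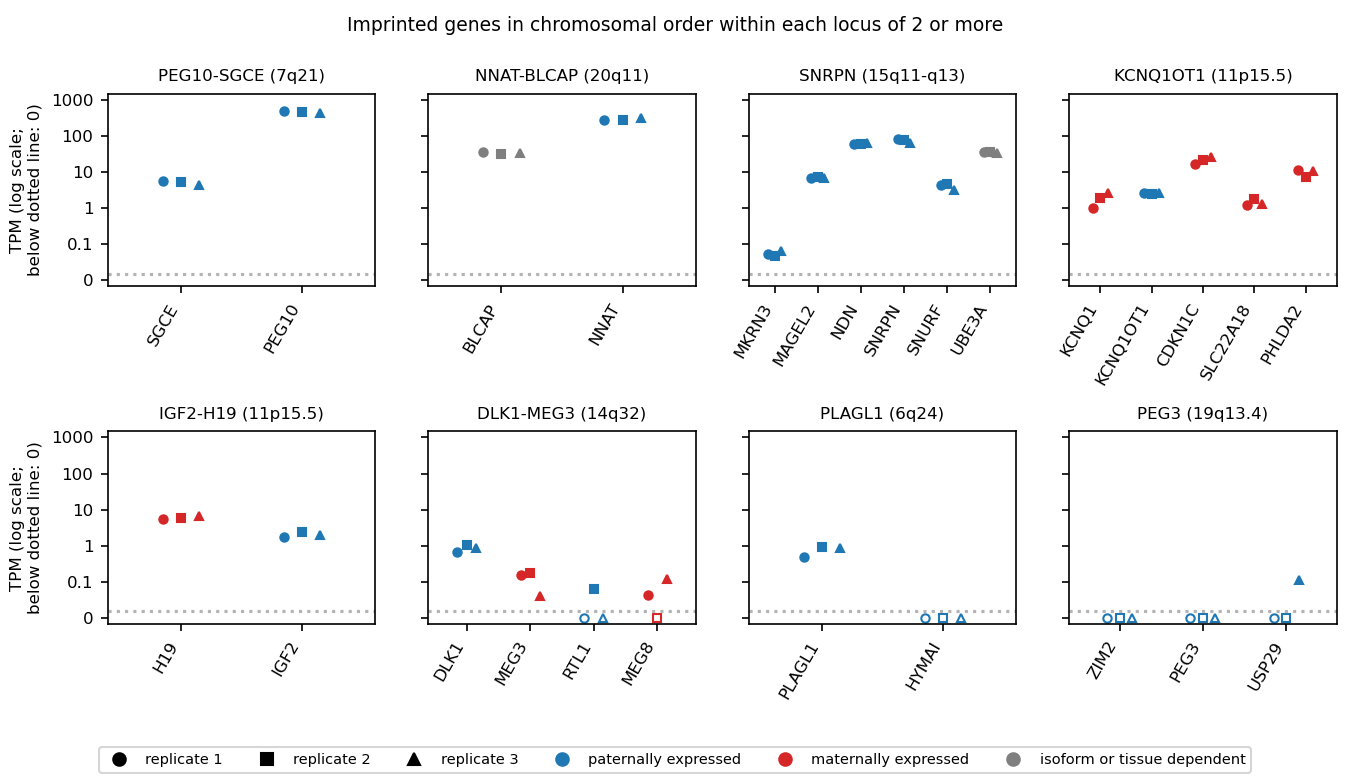
TPM of the members of the 8 loci with more than 1 listed gene, in chromosomal order within each panel, with 1 symbol per replicate and open symbols for 0. Within the SNRPN locus the mean runs from 0.0545 TPM at MKRN3 to 73.4 TPM at SNRPN. The 3 listed genes of the PEG3 locus hold 1 read, on USP29.

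On chromosome 11, a domain controlled by the noncoding RNA KCNQ1OT1 held 2 genes of the medium class, CDKN1C and PHLDA2, and 2 of the low class, KCNQ1 and SLC22A18. CDKN1C, which encodes a cyclin-dependent kinase inhibitor and is mutated in overgrowth, had 108, 165 and 143 reads and 16.7, 21.99 and 25.98 TPM. PHLDA2, which limits placental growth, had 11.3, 7.18 and 10.8 TPM from 20 to 27 reads. CDKN1C was 2.32 ± 0.792 times PHLDA2 (SD, n = 3), and the replicate ranges of both genes did not overlap. SLC22A18, a transporter gene next to PHLDA2, had 17, 28 and 15 reads and 1.44 ± 0.289 TPM (SD, n = 3).

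KCNQ1OT1, the paternally expressed and unspliced antisense transcript of this domain, had 631, 673 and 531 reads. Its 92625 bp of exon gave 2.53 ± 0.116 TPM (SD, n = 3). KCNQ1, the potassium channel gene in which it lies, had 12, 25 and 26 reads, or 1.04, 1.86 and 2.63 TPM. The ratio of KCNQ1OT1 to KCNQ1 was 2.53, 1.29 and 0.981, so that their order was not the same in every replicate. Unspliced KCNQ1 RNA covers the same stretch, and without strand its reads cannot be told apart from those of KCNQ1OT1.

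In the neighboring domain, the noncoding RNA gene H19 (1995166 to 2004552, minus strand) had 49, 60 and 52 reads and 5.98 ± 0.6996 TPM (SD, n = 3). IGF2 (2129112 to 2158391, minus strand), a fetal growth factor and the classic reciprocal partner of H19, had 33, 52 and 32 reads and 2.07 ± 0.318 TPM (SD, n = 3). Per length H19 was 3.06, 2.38 and 3.35 times IGF2. The replicate ranges did not overlap, although both genes were below the median of all protein-coding genes. Of the IGF2 exons, 25.7% are shared with genes on the same strand, none of which had a read, and with unshared length the ratio was 2.18.

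The 4 listed genes in the domain of DLK1 and MEG3 on chromosome 14 were near the limit of detection. DLK1, which encodes a Notch ligand homolog, had 9, 17 and 10 reads and 0.863 ± 0.206 TPM (SD, n = 3). MEG3, a noncoding RNA expressed from the maternal copy, had 9, 12 and 2 reads. MEG8, a noncoding RNA downstream of it, had 3, 0 and 7 reads. RTL1, a retrotransposon-derived gene needed in the placenta, had 0, 1 and 0 reads. DLK1 was the only 1 of the 4 genes with more than 3 reads in every replicate. Their TPM summed to 0.850, 1.30 and 1.01 in replicates 1, 2 and 3.

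The 3 listed genes of the PEG3 locus on chromosome 19 held 1 read. No read was counted in any replicate on PEG3, a zinc finger gene highly expressed in placenta and brain, which allows a level of up to 0.138 TPM, or 0.159 TPM over unshared exon. ZIM2, which shares 41.2% of its exons with PEG3, also had none, which allows up to 0.441 TPM, or 0.749 TPM when only the exon not shared with PEG3 is counted as length. USP29, a ubiquitin-specific protease gene, had 0, 0 and 1 reads. Each limit is the highest over the replicates and covers the error of counting alone, as reads copied by PCR do not stand for separate molecules. Of the PEG3 exons, 8505 bp are not shared with ZIM2.

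PLAGL1, a zinc finger gene whose overexpression causes transient neonatal diabetes, had 8, 18 and 12 reads and 0.7503 ± 0.238 TPM (SD, n = 3). HYMAI, a noncoding RNA that starts at the shared window printed above, had no read, which allows up to 0.404 TPM. DIRAS3, a Ras-family gene with growth-suppressing activity, had 1, 0 and 0 reads. In all, 7 of the 34 genes had 3 or fewer reads in each replicate. Among protein-coding members these were 6 of 29 (20.7%), close to the 22.5% of all protein-coding genes. The 22 paternally expressed genes nevertheless held 6 high, 4 medium, 8 low and 2 nonexpressed genes among their 20 protein-coding members.

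Genes outside the clusters completed the range. ZDBF2, a zinc finger gene on chromosome 2, had 34.5, 36.2 and 34.7 TPM. NAP1L5, a retrogene in an intron of HERC3, had 23, 32 and 23 reads and 5.18 ± 0.495 TPM (SD, n = 3). L3MBTL1, which encodes a chromatin-compacting protein, had 1.90, 2.04 and 2.64 TPM, and 3.54 TPM on average with the longest transcript as length. ZDBF2 overlapped in range with UBE3A and BLCAP, but with the longest transcript as length the means were 28.0 TPM for ZDBF2, 54.6 TPM for UBE3A and 48.4 TPM for BLCAP.

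Summed over members, the TPM of paternally expressed genes was 1148, 1125 and 1094, and that of maternally expressed genes 35.9, 38.7 and 47.6. Paternally expressed genes held 96.5 ± 0.589% (SD, n = 3) of both sums together. Without PEG10, an alternative chosen after seeing the data, they held 94.2%. The medians did not follow the sums. Among protein-coding members the median was 3.14 TPM for paternally expressed genes and 5.79 TPM for maternally expressed genes. It was 7.10 TPM for all protein-coding genes. None of the 4 protein-coding genes assigned as maternally expressed was in the high class, against 6 of the 20 assigned as paternally expressed. The high class held 28.8% of all protein-coding genes, and 4 genes are too few to be told apart from that share. CDKN1C had the highest level among the 4. The lists were chosen by name and differ in size, so that these sums describe the listed genes only. They count all reads of a gene under its 1 assignment, whichever transcript or parental copy the reads came from.

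Counts of each gene were compared between the 3 libraries by a chi-square test against the library totals, over 18451 genes with at least 20 reads in all. Adjusted p-values (Benjamini-Hochberg, over all genes tested) were under 0.05 for 10.9% of genes and for 3 of the 26 members tested: PEG10, CDKN1C and SNRPN. The test compares these libraries and not conditions, and it sets their differences against counting error alone, taking reads as separate molecules. Among genes with at least 300 reads the shares were 17.1% of all genes and 3 of 14 members. PEG10 had its lowest level in replicate 3, with an adjusted p of 2.37e-06. SNRPN was also lowest in replicate 3, with an adjusted p of 0.0235. CDKN1C was highest in replicate 3 and lowest in replicate 1, with an adjusted p of 0.0161.

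Exon GC content moved with these differences. Over 9946 genes with at least 100 reads in each replicate, the log2 ratio of replicate 3 to the others had a Spearman's rho of 0.41 with exon GC content, and over the 14 members among them it was 0.68. Genes in this correlation share the same 3 libraries and are not independent. CDKN1C, with 67.3% GC, lay 0.44 above the other replicates in replicate 3 on the log2 scale, whereas SGCE, with 35.6% GC, lay 0.30 below (-0.30). SGCE was not called by the chi-square test (adjusted p 0.164). Members with nearly as little GC moved less in replicate 3, with -0.048 at UBE3A (37.8% GC) and 0.003 at ZDBF2 (38.9% GC). SNRPN, with 49.5% GC, lay at -0.255. With counts corrected in 20 bins of exon GC, the chi-square statistic was 16.3 against 33.9 for PEG10, 10.5 against 12.4 for SNRPN and 7.00 against 13.41 for CDKN1C. The adjusted p was then 0.00787 for PEG10, 0.0694 for SNRPN and 0.212 for CDKN1C, so that SNRPN passed the threshold no longer although its statistic changed the least of the 3. For PEG10 the adjusted p ranged from 2.35e-09 to 0.802 over all alternatives. Without replicate 3 no member was called by the chi-square test, and 1 had an unadjusted p under 0.05. Only 1.33% of all genes were called without that replicate.

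**Figure D4:**
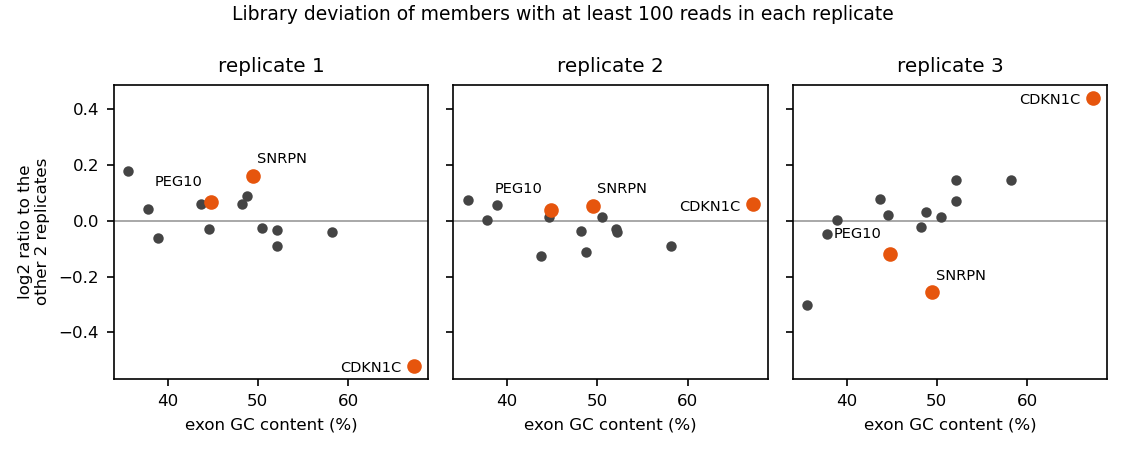
Log2 ratio of each replicate to the other 2 against exon GC content (%) for the 14 imprinted genes with at least 100 reads in every replicate, with the genes called as different between libraries in orange. In replicate 3, CDKN1C (67.3% GC) lies at 0.44 and PEG10 and SNRPN lie below 0.

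Other genes known as imprinted, from a list of 47, were matched for 43 symbols. Of these, 30 had more than 3 reads in every replicate and 6 had none in any. Over all 56948 genes with a TPM, 33.1% had more than 3 reads in every replicate and 23238 genes had none. Most of the 43 genes (33) are protein-coding, and of all protein-coding genes 71.9% had more than 3 reads in every replicate. The 33 protein-coding genes of the list included 5 high, 11 medium, 14 low and 3 nonexpressed, with a median of 2.51 TPM. Of all protein-coding genes 28.8% were high, and their median was 7.10 TPM. Of the 43 genes, coding or not, the 3 with the highest mean were PWAR5 at 334 TPM, COPG2 at 94.0 TPM and NLRP2 at 84.2 TPM. PWAR5 has 100% of its exon on exons of another gene of the same strand, so that its level is uncertain. COPG2 runs convergent to MEST, and their exons share 228 bp.

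Factors that establish or keep imprints were listed as well. Of 18 listed genes, all protein-coding, 12 had more than 3 reads in every replicate and 8 were in the high class. Over all protein-coding genes these shares were 71.9% and 28.8%. DNMT3B, a de novo DNA methyltransferase, was highest at 1200 ± 11.01 TPM (SD, n = 3). TRIM28, the corepressor recruited by ZFP57, had 944 ± 37.9 TPM (SD, n = 3) and UHRF1, which brings DNMT1 to replicated DNA, had 116 ± 3.79 TPM (SD, n = 3). ZFP57, named after its values were seen, had 0, 4 and 8 reads. ZNF445, the other zinc finger protein known to keep imprints, had 18.0 ± 0.635 TPM (SD, n = 3) and was also named after its values were seen.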

How the data were processed

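Per the labels and the methods of the study, the authors trimmed reads with Trim Galore (version 0.4.4), aligned them to GRCh38 with TopHat2 (version 2.1.1) and deposited raw counts of reads per Ensembl gene. Counting tool, annotation and strand setting were not given in the sources used here. The TPM values that the study made with Cufflinks (version 2.2.1) were not used here.

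Counts of 56948 of 58051 genes were joined by identifier to GENCODE release 44 and converted to TPM with the union of exons as length. Library differences were tested by chi-square with Benjamini-Hochberg adjustment over all genes with at least 20 reads. This test and the classes were checked on simulated counts with counting error as the only noise. That check does not cover other differences between libraries, such as those that moved with exon GC content. The series has 1 condition, so no count model of differential expression was fitted. Copies were sought with blastn (version 2.17.0). TMM factors came from edgeR (version 4.0.16) and size factors from DESeq2 (version 1.42.0), in R 4.3.3. Other steps used scipy 1.17.1, pandas 2.3.3 and numpy 2.4.6 under Python 3.11.15.

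Alternatives were the gene length, scaling, thresholds, filters, exon GC correction and leaving out each replicate. Every member was named; of the other lists, the 3 genes with the highest mean TPM were named by rule. Members, lists and tests were chosen with earlier results of these data known. Of 4 listed imprinted genes (IPW, PWAR6, GPR1 and GPR1-AS) no symbol matched. Totals of 8655155 to 12024802 reads set the precision, and levels of genes with few reads are limited by counting error.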

Additional observations from a re-analysis of the deposited data

How the results depend on the processing

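The number of members in the high class, 11, lay between 8 and 13 under all 10 alternatives. It was 8 when genes below 1 TPM were called nonexpressed, and 13 when all genes, coding or not, were classed. The high class is 1 of 3 equal classes of the expressed genes. Its share of all protein-coding genes, 28.8% in the main setting, therefore also falls when that limit is raised. The 8 and the 13 are thus not to be set against 28.8%. The number of detected members, 25, lay between 23 and 27. The number that differed between libraries, 3, was 1 after the exon GC correction. With a replicate left out it was 1 without replicate 1, 4 without replicate 2, where KCNQ1 joined, and 0 without replicate 3. Of all genes tested, 10.9% were called in the main setting and 6.41% after the exon GC correction. The shares of all genes were 9.26% without replicate 1, 10.7% without replicate 2 and 1.33% without replicate 3. The adjusted p over the alternatives ranged from 0.0083 to 0.802 for SNRPN and from 0.0046 to 0.364 for CDKN1C, and the cause was not tested. Leaving out PEG10, chosen after seeing the data, moved the share of TPM in paternally expressed genes from 96.5% to 94.2%, as its own construction removes the largest paternal term.

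With the longest transcript as gene length, 12 members rose and 8 fell by more than their SD. GNAS, UBE3A, SGCE and L3MBTL1, among detected members, moved by over 1.5 times, to 364, 54.6, 12.4 and 3.54 TPM. With unshared exon length, the rescaling to a common sum multiplied genes without shared exons by about 0.897, the ratio of PEG10, and SNURF moved by over 1.5 times, to 7.66 TPM. With TMM or DESeq2 factors, every member stayed within its SD. The mean without 1 replicate is bound to stay there and says nothing on these levels. No paired analysis was possible because only 1 condition was sampled. Depth limits the order of genes with fewer than 20 reads.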
